A study of Mus musculus with 8 samples.

Results

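The genes described here are 10 members of the tubulin family: the α-tubulin genes Tuba1a, Tuba1b, Tuba1c and Tuba4a, the β-tubulin genes Tubb2a, Tubb2b, Tubb3, Tubb5 and Tubb6, and the γ-tubulin gene Tubg1. They were chosen by name, from the gene names on the array and the current symbols or synonyms of the probes' accessions, and they are 10 of the 27597 gene names on the array. All 10 had a probe that the scanner software marked as well above background on all 4 arrays in both groups, so all entered the test. The starved group is IMCD3 cells kept for 48 h in medium with no fetal calf serum, and the unstarved group is IMCD3 cells in 10% serum that had been replated at 1:10 the day before and were still subconfluent, so serum, time since plating and density differ together. IMCD3 is an established mouse epithelial line of collecting duct origin, from the inner medulla of the kidney, and every sample came from this 1 line, with 2 dishes in each group. Starvation was used to make the cells grow cilia. RNA of a starved and an unstarved sample was hybridised together on each of 4 Agilent 2-colour arrays, which make up 2 replicates: arrays 1 and 3 are replicate 1, with starved RNA in Cy5, and arrays 2 and 4 are replicate 2, with starved RNA in Cy3. Replicate and dye orientation therefore cannot be told apart. The series text calls the replicates true biological replicates. Of collecting duct and kidney epithelium markers, 13 of 13 were well above background on all arrays in both groups. The same held for 15398 of the 27597 gene names.

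α- and β-tubulin form the heterodimer from which microtubules are built, and the axoneme of the primary cilium is a ring of microtubule doublets made of the same dimer. γ-tubulin does not enter the wall of the microtubule in bulk but sits in ring complexes that start new microtubules at the centrosome and basal body. Mammals have several α and β genes, called isotypes, whose proteins are alike over most of their length and differ mainly in their acidic tails. Cells also control tubulin mRNA by autoregulation, in which a surplus of free dimer leads to decay of tubulin mRNAs while they are being translated.

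Because the isotype genes are so alike, a probe may read transcripts of several of them. Sequences of probes that the results turn on are given here as deposited, 5′ to 3′. Probes were compared with each other but not aligned to the transcripts. Positions were taken from the probe annotation in the scanner files, which gives the build as mm8. The Tuba1a probe, which carried the largest difference of the family, lies at chr15:98777881-98777896 by that field (minus strand), a span shorter than the probe, and has a stop codon in every reading frame of its strand; its first 30 of 60 bases are shown. The Tuba1b probe at chr15:98760823-98761014 (minus strand) lists accessions of 3 genes, Tuba1a, Tuba1b and Tuba1c. Of the 3 Tuba4a probes, the one nearest the 3′ end lies at chr1:75098880-75098939 and the one nearest the 5′ end at chr1:75100108-75100403 (minus strand), and they are shown because their replicates behaved differently.
Tuba1a, first bases: ttcatacagttactgacttatgaatgattg
Tuba4a, nearest 3′: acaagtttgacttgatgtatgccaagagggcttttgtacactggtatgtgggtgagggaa
Tuba4a, nearest 5′: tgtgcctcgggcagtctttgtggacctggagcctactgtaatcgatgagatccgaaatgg

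Among the β-tubulins, the brightest Tubb2a probe at chr13:34082007-34082066 (minus strand, mm8) lists accessions of 4 genes, Tubb2a, Tubb2b, Tubb3 and Tubb6. Its last 25 bases pair with the first 25 bases of the second Tubb5 probe, at chr17:35443071-35443130 (minus strand), and 22 of those 25 bases are the same. Capitals mark the matching bases, and lower case within the run marks the 3 that differ. Also shown is the Tubb2a probe nearest the 5′ end, at chr13:34082976-34083684 (minus strand), which lists Tubb2a alone. Among the probes of the 10 genes this was the 1 pair found with an ungapped overlap of 20 bases or more and an identity of at least 75%.
Tubb2a, brightest: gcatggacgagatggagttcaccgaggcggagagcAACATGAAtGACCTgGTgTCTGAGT
Tubb5, second: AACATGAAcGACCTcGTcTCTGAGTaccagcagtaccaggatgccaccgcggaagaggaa
Tubb2a, nearest 5′: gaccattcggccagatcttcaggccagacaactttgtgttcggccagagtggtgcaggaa

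Tubulin transcripts were lower in starved cells for 4 of the 10 genes and higher for 0 of 10. At an unadjusted limma p under 0.05 these counts were 6 and 0, against 2899 and 3675 of all 16078 tested genes. Tuba1a fell furthest, followed by Tubb6, Tubb2b and Tubb3, with log2 ratios of starved over unstarved cells from -1.31 to -0.37. The other 6 genes did not pass the test: 5 of them had ratios from -0.38 to -0.21 and Tubg1 had 0.06. The test was limma's moderated test on the 2 replicate log2 ratios, with Benjamini-Hochberg adjustment over 16078 genes and a threshold of 0.05. Every SE given here is limma's moderated SE, drawn mostly from the spread over all tested genes (14.9 prior against 1 residual degree of freedom). It is therefore not the spread of a gene's own replicates, and the p-values rest on the same pooled spread. Over all tested genes 13.3% passed as lower and 18.1% as higher, with a median log2 ratio of 0.01, and the median of the 10 tubulin genes was -0.34. One sign on all 4 arrays was seen for 9 of the 10 genes, against 69.3% of all tested genes. In bulk RNA of this kind, fewer cells that express a gene and less RNA per cell cannot be told apart.

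**Figure D1:**
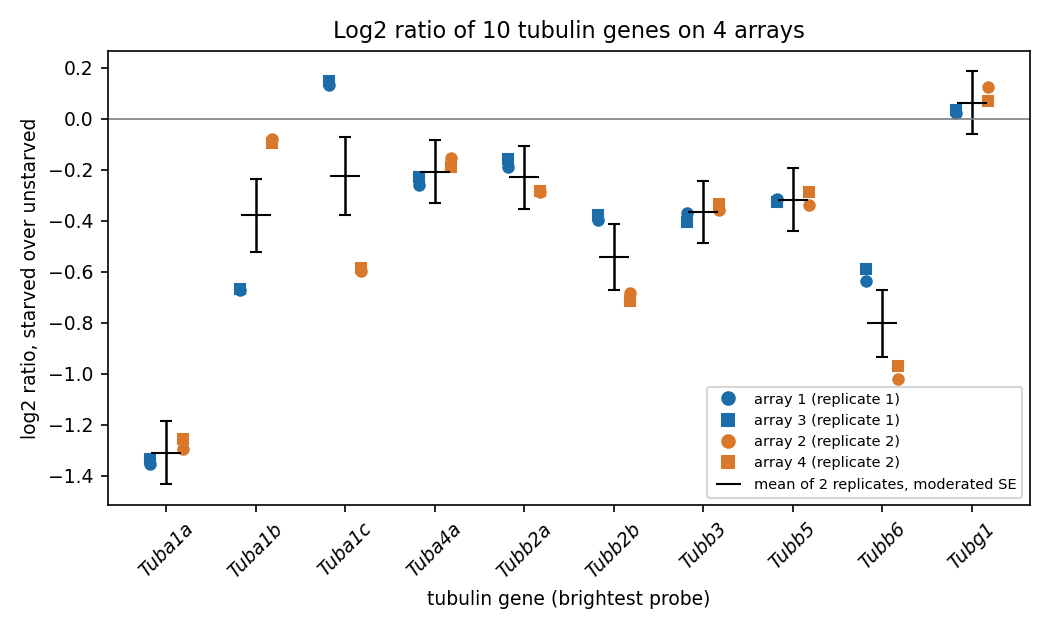
Log2 ratio of starved over unstarved cells (vertical axis) for the brightest probe of each of 10 tubulin genes (horizontal axis). Circles and squares are the 4 arrays, coloured by replicate, and black bars are the mean of 2 replicates with the moderated SE. Tuba1a sits between -1.35 and -1.26 on every array, while the replicates of Tuba1b and Tuba1c lie far apart.

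Tuba1a, an α-tubulin best known as the main isotype of the developing brain, had log2 ratios of -1.35 and -1.33 on the arrays of replicate 1 and -1.29 and -1.26 on those of replicate 2. The 4 arrays thus gave nearly one value, in both dye orientations. The normalized signal of its probe in a single dye channel, on the log2 scale, was 15.60, 15.38, 15.54 and 15.62 in starved cells on arrays 1 to 4, against 16.95, 16.67, 16.87 and 16.87 in unstarved cells. Every starved sample lay below every unstarved one. The mean log2 ratio was -1.31 ± 0.12 (SE, n = 2, limma adjusted p = 5.94e-07), a starved-to-unstarved ratio of 0.403, and 0.827% of all tested genes had a log2 ratio as low or lower. Tuba1a also passed when each array was only centred on its median, in place of the intensity-dependent loess normalization (-1.65, limma adjusted p = 0.0120), where 1.55% of all tested genes passed in either direction.

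Tuba1b and Tuba1c, α-tubulins expressed in most dividing cells, gave replicates that went apart. Tuba1b had log2 ratios of -0.67 on both arrays of replicate 1 but -0.08 and -0.09 on those of replicate 2. Its normalized log2 signal in starved cells ran from 15.32 to 15.56 and that in unstarved cells from 15.52 to 16.05, so the groups overlapped slightly. The mean of -0.38 ± 0.14 (SE, n = 2) did not pass (limma adjusted p = 0.0549). It passed with a smaller offset in the background correction, 10 in place of 50 (0.0392), and without array 1 (0.0216). Agilent's processed signals (limma adjusted p = 0.108), the deposited value table (0.105) and median centring (log2 ratio -0.67) gave no call. Tuba1c went the other way between replicates, at 0.13 and 0.15 in replicate 1 and -0.59 on both arrays of replicate 2. Its mean of -0.23 ± 0.15 (limma adjusted p = 0.293) therefore stands for neither replicate. The difference of replicate 1 minus replicate 2 was -0.58 for Tuba1b and 0.73 for Tuba1c, while 90% of all tested probes lay between -0.47 and 0.46. In these gaps, dye and replicate cannot be told apart, since each replicate holds 1 dye orientation.

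Tuba4a, an α-tubulin whose gene does not encode the C-terminal tyrosine that other isotypes carry, was read by 3 probes. The brightest, nearest the 3′ end, had -0.26, -0.15, -0.23 and -0.19 on arrays 1 to 4. Its starved signals of 16.47 to 16.60 lay below its unstarved signals of 16.66 to 16.86, and its mean of -0.21 ± 0.12 did not pass (limma adjusted p = 0.224). The middle probe had -0.31 in replicate 1 and 0.07 in replicate 2, and the probe nearest the 5′ end had -0.59 and 0.14. The gap between the replicates was thus -0.07, -0.38 and -0.73 from the 3′ probe to the 5′ probe, whose 5′ and 3′ sequences are shown above. The average log2 intensity of the probes fell in the same order (16.6, 15.2 and 13.7), so position and brightness cannot be told apart. None of the 3 probes passed when tested as single probes (limma adjusted p over 24606 probes of 0.244, 0.559 and 0.306).

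Tubb6, a β-tubulin made at a low to moderate level in many tissues, was the next to fall after Tuba1a. Its probe at the 3′ end, on chromosome 18, had log2 ratios of -0.63 and -0.59 in replicate 1 and -1.02 and -0.97 in replicate 2. The normalized log2 signal was 16.07, 15.73, 16.17 and 15.89 in starved cells on arrays 1 to 4, against 16.71, 16.75, 16.76 and 16.86 in unstarved cells, with no overlap. The mean log2 ratio was -0.80 ± 0.13 (SE, n = 2, limma adjusted p = 2.11e-04), a ratio of 0.574. A second probe named Tubb6 on the array lies on the opposite strand, comes from a cDNA clone and lists no accession that the RefSeq gene table names. It had 0.18, 0.25, 0.17 and 0.24 on arrays 1 to 4, with starved signals of 10.31 to 10.42 all above unstarved signals of 10.14 to 10.18, and did not pass (0.21, limma adjusted p = 0.238 over probes). The mean of both probes gave -0.30 and no call (limma adjusted p = 0.0686), and with median centring the brightest probe had -1.16 and no call (0.225).

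Tubb2b, a β-tubulin abundant in the developing nervous system, had log2 ratios of -0.40 and -0.38 in replicate 1 and -0.68 and -0.71 in replicate 2. Its probe lies at chr13:34134657-34134716 (mm8, minus strand) and lists Tubb2b alone. Its normalized log2 signal was 13.14, 13.02, 13.09 and 12.89 in starved cells, against 13.54, 13.70, 13.47 and 13.61 in unstarved cells on arrays 1 to 4. The groups did not overlap, and the mean was -0.54 ± 0.13 (SE, n = 2, limma adjusted p = 0.00404). With median centring the value was -0.68 and no longer passed (limma adjusted p = 0.994).

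Tubb3, the β-tubulin used as a marker of neurons, was read by 1 probe printed in 10 spots per array, at chr8:126307891-126307950 (mm8, plus strand). It had -0.37, -0.36, -0.40 and -0.33 on arrays 1 to 4, so both replicates gave the same size of difference. Starved cells had normalized log2 signals of 10.49, 10.58, 10.62 and 10.46 on arrays 1 to 4, against 10.86, 10.94, 11.02 and 10.80 in unstarved cells, with no overlap. The mean log2 ratio was -0.37 ± 0.12 (SE, n = 2, limma adjusted p = 0.0321), and with median centring it was -0.40 and did not pass (1.00). Markers of neurons were mostly dim: 10 of 12 were not well above background on all arrays in either group, among them Dcx, Snap25, Nefl and Gap43. The other 2 were tested: Map2, which is counted again below among the microtubule-binding proteins, was higher in starved cells (1.37 ± 0.12, limma adjusted p = 3.62e-07), and Syn1 had -0.19 and did not pass. Their summed signal on the linear scale without Syn1 was 1371 to 1524 in starved cells and 1145 to 1280 in unstarved cells; the summed signal of all 12, most of it from Syn1, was 5873 to 27750 in starved cells and 6146 to 33398 in unstarved cells. The part of neuron-like expression in the Tubb3 value was not tested.

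**Figure D2:**
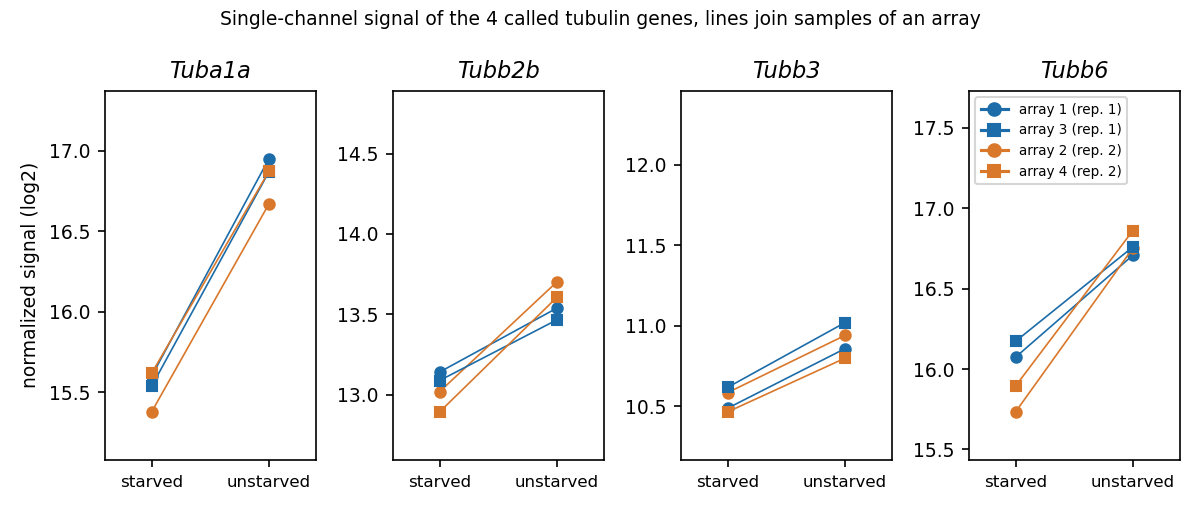
Normalized single-channel signal on the log2 scale (vertical axis) in the starved and unstarved sample of each array, for the 4 tubulin genes that passed the test; a line joins the samples of an array, coloured by replicate. Every panel spans the same number of log2 units, and in each the 4 starved samples lie below the 4 unstarved samples; heights are not comparable between panels.

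Tubb5 and Tubb2a, the remaining β-tubulins, did not pass. With their brightest probes every starved sample lay below every unstarved sample, as for 23.5% of all tested genes. The 4 samples of a group come from 2 dishes. Tubb5, the most widely expressed β-tubulin, had -0.32, -0.34, -0.33 and -0.29 on arrays 1 to 4 with its brightest probe, with starved signals of 17.27 to 17.38 and unstarved signals of 17.56 to 17.70. Its mean of -0.32 ± 0.12 (SE, n = 2) missed the threshold (limma adjusted p = 0.0607) and passed without array 1 (0.0491), with no replicate block (0.0260) and with replicate as a random effect (0.0311). Tubb5 did not pass with Agilent's processed signals (limma adjusted p = 0.187), the deposited value table (0.184), the mean of both probes (0.0661) or median centring (0.895). The second Tubb5 probe, which shares bases with Tubb2a as shown above, had -0.09 in replicate 1 and -0.49 in replicate 2. Tubb2a had -0.19, -0.29, -0.16 and -0.28 with the probe that lists 4 β-tubulin genes, a mean of -0.23 ± 0.12 (limma adjusted p = 0.178). The Tubb2a probe that lists this gene alone and lies nearest its 3′ end gave a similar -0.15, -0.23, -0.19 and -0.21. The probe nearest the 5′ end had -0.83 in replicate 1 and 0.01 in replicate 2, a gap of -0.83 that placed it among the lowest 0.853% of tested probes. This probe was also the dimmest of the gene (average log2 intensity 12.2, against 14.8 and 16.9).

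**Figure D3:**
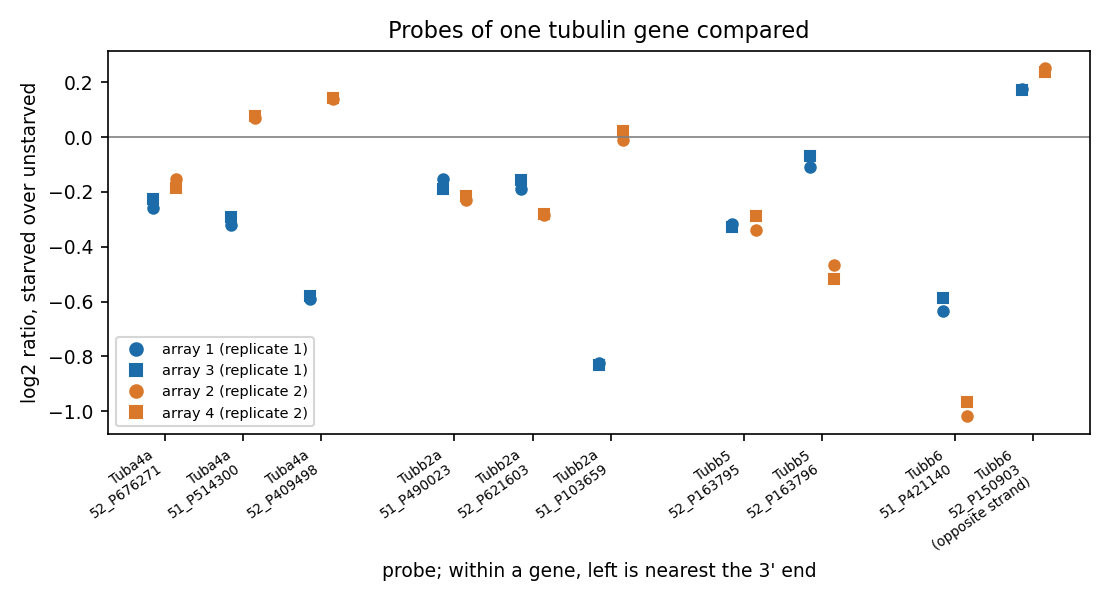
Log2 ratio of starved over unstarved cells (vertical axis) for each probe of the 4 tubulin genes with more than 1 probe (horizontal axis, the probe nearest the 3′ end on the left within a gene). Circles and squares are the 4 arrays, coloured by replicate. The replicates draw apart toward the 5′ end of Tuba4a and at the 5′ probe of Tubb2a, with replicate 1 lower. These 5′ probes are also the dimmest of their genes. They also draw apart at the second Tubb5 probe and the 3′ probe of Tubb6, with replicate 2 lower. The opposite-strand probe of Tubb6 lies above 0 on every array.

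Tubg1, the main γ-tubulin of ring complexes, had log2 ratios of 0.02, 0.13, 0.03 and 0.07 on arrays 1 to 4, and its groups overlapped, with signals of 14.95 to 15.26 in starved cells and 14.88 to 15.16 in unstarved cells. The mean was 0.06 ± 0.12 (SE, n = 2, limma adjusted p = 0.740), and its sign turned with median centring (-0.20). In single-channel signal, 7 of the 10 genes had all 4 starved samples below all 4 unstarved samples with their brightest probe, against 23.5% of all tested genes, and 0 had them all above, against 28.3%. In order of log2 ratio, the per-array ranges of Tuba1a (-1.35 to -1.26) and Tubb6 (-1.02 to -0.59) did not overlap. That of Tubb6 overlapped the range of Tubb2b (-0.71 to -0.38), which in turn overlapped that of Tubb3 (-0.40 to -0.33).

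Of 10 further tubulin genes, 7 had a probe under their current or former name and were tested (Tubb4a and Tubb4b stand on the array as Tubb4 and Tubb2c). Tubal3 and Tubb1 had no named probe, and Tuba3b had none of its own but is listed with both Tuba3a probes, so that values given for Tuba3a may come from either gene. Tubb4a, a β-tubulin best known from brain, was lower in starved cells (-0.58 and -0.60 in replicate 1, -0.22 on both arrays of replicate 2; mean -0.41 ± 0.13, limma adjusted p = 0.0258), and 6 did not pass. That is 1 of 7 lower, against 13.3% of all tested genes, and with median centring 0 of the 7 passed, while 2 passed as lower without array 1 and likewise without array 3. Tuba3a, an α-tubulin of the testis, did not pass (limma adjusted p = 0.0512). Its brightest probe had -0.71 and -0.65 in replicate 1 and -0.09 and -0.08 in replicate 2, with signals of 15.9 to 16.2 in starved and 16.3 to 16.6 in unstarved cells. A second Tuba3a probe had -0.32 in replicate 1 and -0.05 in replicate 2 (limma adjusted p = 0.307 over probes). Its signals were 7.9 to 8.0 in starved and 7.9 to 8.3 in unstarved cells. Which α-tubulin transcripts the brightest probe read was not tested. Tubb4b, a β-tubulin of ciliated and dividing cells, had -0.23 (limma adjusted p = 0.195). Tubg2 (0.25, 0.139), the ε-tubulin gene Tube1 (0.10, 0.589), the δ-tubulin gene Tubd1 (-0.03, 0.861) and Tuba8 (-0.11, 0.536) did not pass either. An α-tubulin probe that keeps only an array name, TC1648901, lies at chr15:98760708-98760767 (mm8, minus strand), next to the Tuba1b probe, and had -0.75 and -0.65 in replicate 1 against 0.00 and -0.03 in replicate 2. The gap of -0.69 is of the same sign as that of the Tuba1b probe. This probe was chosen after its values were seen.

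Genes whose products act on tubulin moved in both directions, where 18.1% of all tested genes passed as higher and 13.3% as lower. In the list of the γ-tubulin ring complex and its anchors, 2 of 14 tested genes rose, 1 fell and the median log2 ratio was 0.09. Tubgcp2, a core subunit of the ring complex, rose (0.50 ± 0.12, limma adjusted p = 0.00532), as did Pcnt, which encodes the centrosomal scaffold pericentrin (0.40 ± 0.13, 0.0228). Ninl, a centrosomal protein that binds γ-tubulin, fell (-0.60 ± 0.13, 0.00188). Tubulin must be folded by a chaperonin, prefoldin and the cofactors TBCA to TBCE before it can form dimers. Among 14 such genes tested 1 rose and 1 fell, with a median of -0.06: Tbcel, a relative of cofactor E, rose (0.60 ± 0.13, limma adjusted p = 0.00187) and Pfdn4, a prefoldin subunit, fell (-0.93 ± 0.14, 1.02e-04).

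Of 19 tested tubulin-modifying enzymes, 3 rose and 3 fell, with a median of 0.08; 4 more were not tested. Vash2, a carboxypeptidase that removes the C-terminal tyrosine of α-tubulin, rose (0.91 ± 0.12, limma adjusted p = 2.99e-05). Ttl, the ligase that puts this tyrosine back, fell (-0.53 ± 0.12, 0.00357). Vash1 (-0.33, limma adjusted p = 0.0564) and Svbp (0.06, 0.749) of the same list did not pass. Whether the tyrosine content of tubulin changed was not tested. Agbl3, a deglutamylase, rose (0.68), as did Ttll6, a polyglutamylase (0.55), which was well above background on 4 of 4 arrays in starved cells but 3 of 4 in unstarved cells. Ttll6 entered the test through the starved group alone, and with the filter applied to both groups 2 genes of the list rose and 3 fell. Tpgs2, a subunit of a polyglutamylase complex, fell (-0.79 ± 0.12, limma adjusted p = 1.34e-04), and so did Ttll12 (-0.46). The list of microtubule stabilisers, plus-end and severing proteins had 3 of 25 tested genes higher and 4 lower, with a median of 0.01. Map2 (1.37 ± 0.12, limma adjusted p = 3.62e-07) and Map7 (0.90), which bind along microtubules, rose, and so did Stmn1, a tubulin-sequestering stathmin (0.59, from 0.82 in replicate 1 and 0.35 in replicate 2). Stmn4, another stathmin (-1.64 ± 0.13, limma adjusted p = 9.87e-08), Map6, a stabiliser of microtubules (-1.11), and Spast, the severing enzyme spastin (-0.50), fell.

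Autoregulation of tubulin mRNA, as worked out mainly in human cells, needs TTC5, which recognises nascent tubulin, SCAPER and the CCR4-NOT deadenylase. Of 10 such genes tested, 1 rose and 0 fell, with a median of -0.02. At an unadjusted limma p under 0.05, 2 were higher and 1 was lower. Scaper rose (0.46 ± 0.12, limma adjusted p = 0.00988). Ttc5 itself had -0.05, 0.05, -0.06 and 0.04 on arrays 1 to 4 (limma adjusted p = 0.982). At the threshold used here, 31.4% of all tested genes passed in either direction, so the counts of these lists (3 of 14, 2 of 14, 6 of 19, 7 of 25 and 1 of 10) were near or below that share. With median centring, 1 gene of these 5 lists passed as lower and 0 as higher.

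**Figure D4:**
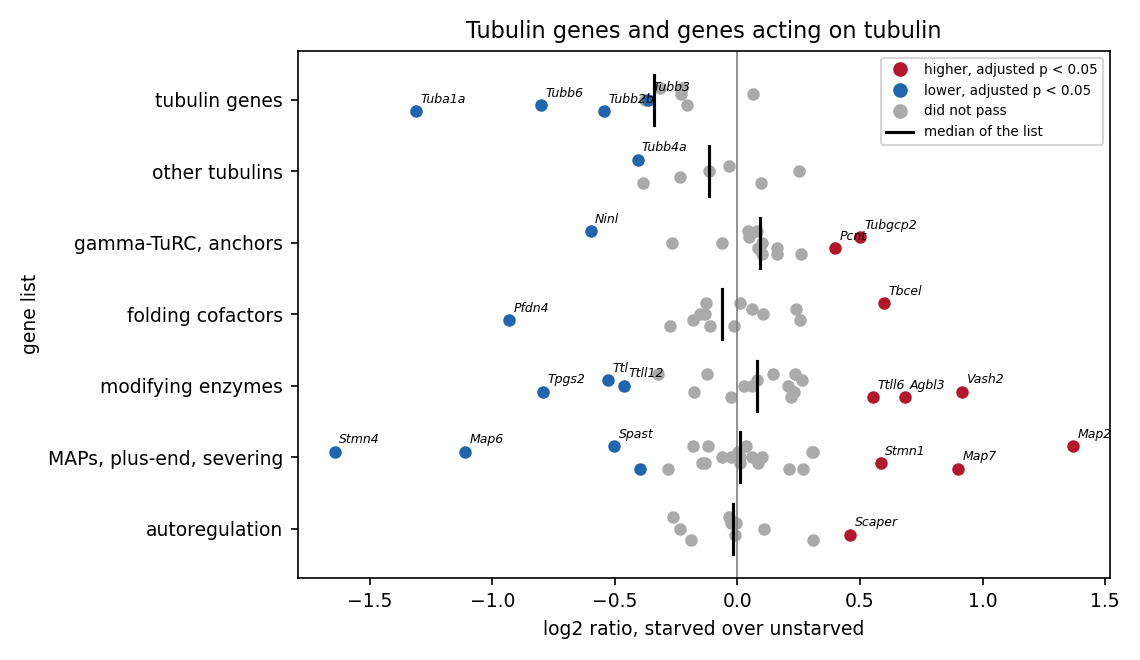
Log2 ratio of starved over unstarved cells (horizontal axis) of the 10 tubulin genes, of other tubulins and of 5 lists of genes acting on tubulin (vertical axis); points are genes, coloured by whether they passed limma's test as higher or lower, and black lines are list medians. The tubulin genes lie mostly left of 0, with a median of -0.34, and the other tubulins have a median of -0.11. The medians of the 5 lists of genes acting on tubulin lie between -0.06 and 0.09.

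Markers of other cell types a culture could hold were in part above background. Of 9 fibroblast markers 6 did not reach the background criterion in starved or unstarved cells, and their summed signal was 1191 to 1260 in starved cells and 1559 to 1690 in unstarved cells; Col1a1 fell (-1.01 ± 0.12, limma adjusted p = 1.03e-05), and Postn was above background in unstarved cells alone. Of the kidney epithelial markers, the junction and adhesion genes Cldn4 (0.86), Cdh1 (0.67), Epcam (0.61) and Cldn7 (0.60) rose and the keratin genes Krt8 (-0.64) and Krt19 (-0.90) fell, and the summed signal of all 13 was 572630 to 625164 in starved cells and 641284 to 686230 in unstarved cells. Platelet and megakaryocyte markers, checked because Tubb1 belongs to that lineage, were well above background for 3 of 5 genes and summed to 875 to 932 in starved cells and 912 to 982 in unstarved cells; Pf4 fell (-0.51) and Itga2b rose (0.47). The part of these markers in the tubulin values was not tested.

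The tested genes whose 4 array log2 ratios lay nearest to those of Tuba1a, by Euclidean distance over the 4 arrays, were Rab3b, a vesicle GTPase (distance 0.0426), Dkk3, a secreted glycoprotein (0.0533), and Htra1, a secreted serine protease (0.0568), with log2 ratios of -1.31, -1.29 and -1.31. For Tubb3, the member that passed with the smallest difference, they were EG620169 (0.0199), the cholesterol acyltransferase gene Soat1 (0.0268) and TC1638255 (0.0332), with log2 ratios of -0.37, -0.36 and -0.35. The first and last of these are names on the array with no symbol given here.

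Promoters were in the RefSeq table for 7 of the 10 genes; Tubb2b, Tubb6 and Tubg1 were not found there. The window searched ran from 250 bases before the start site to 50 after it, on both strands, in these and in all 32851 promoters of the table. The CCAAT box, spelled CCAAT, was found in 4 of 7 promoters, against 37.4% of all promoters. The GC box, spelled GGGCGG, was found in 6 of 7, against 35.7%. The TATA box, spelled TATAAA, was found in 1 of 7 (Tubb2a), against 13.6%, and the TEAD motif, spelled GGAATG, in 1 of 7 (Tubb5), against 14.7%. The CArG box of serum response factor, whose letters can overlap a TATA box, was found in 0 of 7, against 1.60%. The sequences shown are those of the genes that fell and had a promoter in the table, from assembly GRCm38.p6 and on the strand of the gene: Tuba1a at chr15:98953502-98953751 (minus strand) and Tubb3 at chr8:123411303-123411552 (plus strand). Capitals mark a CCAAT box or a GC box, read on either strand. The Tuba1a promoter held CCAAT 176 bases and GGGCGG 63 bases before the start site. The Tubb3 promoter held CCAAT 77 bases and GGGCGG 138 and 46 bases before it.
Tuba1a: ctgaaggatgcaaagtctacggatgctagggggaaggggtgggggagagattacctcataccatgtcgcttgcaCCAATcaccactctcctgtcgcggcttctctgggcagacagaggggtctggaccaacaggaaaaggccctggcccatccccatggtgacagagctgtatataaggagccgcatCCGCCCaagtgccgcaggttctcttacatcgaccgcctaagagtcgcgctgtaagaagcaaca
Tubb3: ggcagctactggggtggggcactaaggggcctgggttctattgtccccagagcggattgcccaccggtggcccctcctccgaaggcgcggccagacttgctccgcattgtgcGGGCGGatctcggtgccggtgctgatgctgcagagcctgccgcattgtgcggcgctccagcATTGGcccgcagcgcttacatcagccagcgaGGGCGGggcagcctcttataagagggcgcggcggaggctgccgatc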

How the data were processed

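Gene expression was measured on Agilent 2-colour arrays with 60-base probes, in 8 samples on 4 arrays. The intensity values deposited for each spot, a mean signal and a local background median, were made by the submitters with Agilent Feature Extraction 9.5.3.1 (version per the file headers). The deposited processed intensity, used as an alternative, was background-subtracted, detrended and dye-normalized per the file headers. The flag columns deposited with each spot mark outliers, saturation and probes well above background. The members and gene lists were chosen with earlier results of these data known.

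Background was removed by normexp with an offset of 50 and each array was loess-normalized in limma 3.58.1 under R 4.3.3. Of 45018 spots per array, 1639 were controls, which were not used, nor were 583 outlier spots summed over the arrays; 0 were saturated. A probe was tested if 1 group or both exceeded background clearly on all 4 arrays (24606 of 41174 probes), and a gene was its brightest such probe (16078 genes). The arrays of a replicate were averaged, so n = 2 with 1 residual degree of freedom, and limma's moderated test was adjusted by Benjamini-Hochberg over all genes; the number of arrays limits the precision. An exact test on 2 replicates cannot go below p = 0.5. The fit was tested on simulated data. Single-channel levels were taken after loess and between-array scaling of average intensity (Aquantile). The level of one probe is not set against that of another, except where probes are ordered by average intensity.

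The files of both samples of an array were identical for all 4 arrays. Each log ratio sets a starved sample against its co-hybridised unstarved partner, as the series text gives it. That text speaks of a dye swap within each pair, whereas by the labels each replicate holds 1 dye orientation; the labels were followed. After the group means were taken off, samples of 1 number correlated at -0.297, and since these carry opposite dyes this does not test the pairing. Log ratios of arrays within a replicate had a Pearson correlation of 0.991 across probes, and those between replicates 0.824 to 0.830.

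All 10 members were named. Of the other lists each gene that passed could be named, or the 6 of largest absolute log2 ratio where more did, and for the called members of highest and lowest ratio the 3 nearest genes. Some listed genes that did not pass are named too, among them Vash1 and Svbp. Probe names came from accessions (24375), current symbols (6301), synonyms (2426) or the array (8072), through a RefSeq gene table of GRCm38.p6, whose coordinates were not set against the mm8 positions of the probes.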

Additional observations from a re-analysis of the deposited data

How the results depend on the processing

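Tuba1a kept its direction and its call in every alternative with a test (log2 ratio -1.65 to -1.28 over 18 alternatives), and every gene that passed as lower kept its direction in each, except that the opposite-strand probe of Tubb6 taken by itself gave 0.21 in place of -0.80. Median centring in place of loess left 1 tubulin gene called as lower and 249 of all tested genes, and the median of the 10 genes was -0.67, against -0.08 for all tested genes under that setting. Those medians are not at like brightness. The move from loess was largest for the brightest gene probe, Tubb5 (average log2 intensity 17.5, -0.32 to -0.76). It was smallest for the dimmest, Tubb3 (10.7, -0.37 to -0.40). Tubb2b (-0.68), Tubb3 (-0.40) and Tubb6 (-1.16) lost their calls. Averaging every probe of a gene gave a median of -0.30 and ended the call of Tubb6 (-0.30), and Agilent's processed signals and the deposited value table both gave a median of -0.31. Averaging arrays 1 with 2 and 3 with 4, arrays 1 with 4 and 2 with 3, or adding a dye term called 9 tubulin genes lower and 1 higher, and called 14296, 14102 and 14199 of all tested genes, so those counts say little of tubulin. With no replicate block, 5 tubulin genes passed as lower and 0 as higher, and 5861 genes in all; Tubb5 was added (adjusted p = 0.0260), and the block changed no other tubulin call. Leaving out an array gave 4 to 6 tubulin genes lower, 0 higher and 4964 to 5515 genes called; 6 came without array 1. Leaving out an array or a replicate gave medians of -0.35 to -0.33, and with 1 replicate left there was no test and Tuba1c had 0.14 or -0.59. The cause of these changes was not tested. Signal over background limited none of the 10 genes, which were all well above background on 4 of 4 arrays. Precision rests on 2 replicates.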
